A study of Mus musculus with 6 samples.

Results

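A set of 10 genes that NF-kB switches on and that in turn shape or restrain its signalling was followed in mouse colon at rest and directly after repeated restraint stress. They were Nfkbia, Nfkbiz, Nfkbie, Tnfaip3, Tnip1, Tnip3, Zc3h12a, Bcl3, Birc3 and Relb, chosen by name from the 43432 gene identifiers of the count table. All 10 were found by symbol and all 10 passed the filter on low counts, which left 16119 genes. Colon tissue came from wild-type mice, 3 resting (mice 15, 17 and 19) and 3 stressed (mice 10, 11 and 13), with 1 poly(A)-selected RNA library per mouse. The stressed mice had been held in a restrainer for 30 min on each of 3 occasions, and their colon was taken right after the last. The labels carry that restraint note for the resting mice as well, so only the treatment label separates the groups. Strain, age and sex are not stated in the labels. Library totals ran from 16425525 to 19819267 counts, and the epithelial marker genes Epcam, Krt20, Car1 and Muc2 each stood at 1338 CPM (read counts scaled to the library total) or more in every library. The tissue holds many cell types, and more cells of a type cannot be told apart from more RNA per cell.

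NF-kB is a family of dimeric transcription factors that IkB proteins hold inactive in the cytoplasm. Signals from TNF receptors, the interleukin-1 receptor or Toll-like receptors lead through ubiquitin chains to the IKK kinases, which mark IkB for destruction and free the dimers to enter the nucleus. Among the first genes these dimers switch on are their own inhibitors, so transcripts of the feedback genes are widely read as a trace of recent NF-kB activity. In the gut, where bacterial products are always close, this feedback limits epithelial and myeloid inflammation.

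The NF-kB binding motif stands in the promoters of most of these genes, and 3 promoters are printed because their genes had the highest, a nearly equal and the lowest level after stress relative to rest. RefSeq promoter windows of 300 bases (GRCm38.p6, 250 before and 50 after the start site) were at hand for 8 of the 10 genes, Nfkbiz and Relb being the other two. These 8 genes had 9 windows, because Tnfaip3 had a second one. The kappaB consensus motif was searched on both strands as GGGRNNYYCC (R is A or G, Y is C or T, N is any base). It was found in 6 of the 9 windows, those of 6 genes, and in 8.46% of all 32851 windows. The second Tnfaip3 window, which is not printed, had no match. The 250 bases before the start site follow for Nfkbia (chr12:55492648-55492897, minus strand), Tnfaip3 (chr10:19015411-19015660, minus strand) and Tnip3 (chr6:65590148-65590397, plus strand), with each match to the consensus in capitals.
Nfkbia: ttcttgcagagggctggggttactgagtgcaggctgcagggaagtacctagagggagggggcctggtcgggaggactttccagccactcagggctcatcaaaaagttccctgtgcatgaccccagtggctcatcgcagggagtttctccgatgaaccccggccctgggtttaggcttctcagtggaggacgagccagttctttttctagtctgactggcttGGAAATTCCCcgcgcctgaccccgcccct
Tnfaip3: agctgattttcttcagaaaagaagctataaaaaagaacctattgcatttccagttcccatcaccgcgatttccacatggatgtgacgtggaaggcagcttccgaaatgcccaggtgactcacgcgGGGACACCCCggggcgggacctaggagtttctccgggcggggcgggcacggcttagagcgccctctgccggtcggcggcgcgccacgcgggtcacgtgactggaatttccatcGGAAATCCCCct
Tnip3: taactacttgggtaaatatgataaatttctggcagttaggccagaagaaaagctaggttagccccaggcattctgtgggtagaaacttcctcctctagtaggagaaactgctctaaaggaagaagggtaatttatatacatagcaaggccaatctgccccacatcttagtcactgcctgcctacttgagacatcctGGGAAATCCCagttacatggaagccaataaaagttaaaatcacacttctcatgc
Nfkbia thus carried 1 match, GGAAATTCCC, which begins at position -29 counted from the start site. Tnfaip3 had 2, and Tnip3 had GGGAAATCCC at -54. Tnip1 carried GGGAATTCCC at -57 within a run of overlapping matches, Nfkbie GGGGGATTCC at -106, and Bcl3 GGGAAGTCCC just inside the transcript. Zc3h12a and Birc3 had no match to the consensus in these windows. These are matches of letters in a short window and not measured binding.

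Nfkbia, which encodes the main inhibitor IkB-alpha, stood higher in every stressed mouse than in any resting mouse. It was at 64.6, 57.8 and 73.8 CPM in resting mice 15, 17 and 19 and at 87.4, 83.3 and 94.6 CPM in stressed mice 10, 11 and 13. The means were 65.4 ± 8.02 and 88.4 ± 5.74 CPM (SD, n = 3 each), a 1.35-fold difference with a 95% interval of 1.17 to 1.56. The log2 fold change was 0.43 ± 0.09 (SE). It did not pass the threshold over all genes (edgeR quasi-likelihood test, adjusted p = 0.278, unadjusted p = 0.000809), and 0.285% of the tested genes had a smaller p. The edgeR fit without the low-count filter called it (adjusted p = 0.00351), as did DESeq2 (adjusted p = 0.0164); over all 12 alternatives its adjusted p ran from 0.00351 to 0.889 and its log2 fold change from 0.35 to 0.54.

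No feedback gene passed the threshold, 0 of 10 at an adjusted p under 0.05, where 0.0310% of all tested genes passed (5 of 16119), 0.0248% higher and 0.00620% lower. At an unadjusted edgeR p under 0.05 there were 2 of 10, Nfkbia higher and Tnip3 lower, beside 6.92% of all tested genes, 3.52% higher and 3.41% lower. The groups did not overlap for 1 of the 10, Nfkbia, beside 12.7% of all tested genes, 6.13% higher and 6.58% lower. The feedback genes' share without overlap is thus close to the background. Of the 10 log2 fold changes 6 were above 0 and 4 below, with a median of 0.01, beside a median of -0.003 over all tested genes. DESeq2 called 1 of the 10, Nfkbia, beside 56 of all 16119 tested genes. The edgeR fit without the filter also called 1, Nfkbia, beside 151 of 25666 genes. With limma-voom 0 of the 10 were called, beside 3 of 16119.

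**Figure D1:**
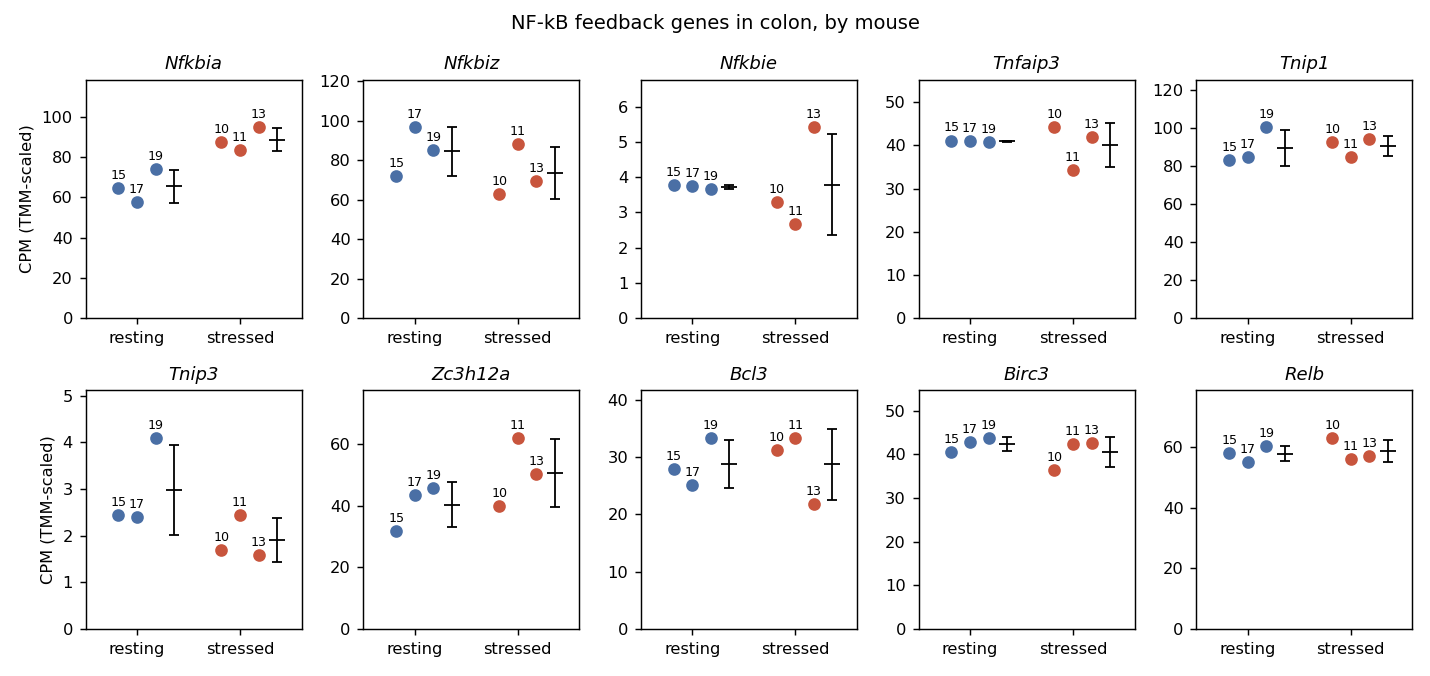
CPM of each of the 10 genes (vertical axes from 0, scaled by TMM factors) in resting mice (blue) and stressed mice (red), each point labelled with its mouse number; the black mark and bar give the mean and SD of 3 mice. Nfkbia is the gene whose stressed points, 83.3 to 94.6 CPM, all lie above the resting ones, 57.8 to 73.8 CPM.

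For the other IkB genes of the set the 2 groups overlapped. Nfkbie, which encodes IkB-epsilon, another cytoplasmic inhibitor, was among the scarcest, with 49 to 89 counts in a library. It stood at 3.77, 3.76 and 3.65 CPM in resting mice 15, 17 and 19 and at 3.28, 2.67 and 5.41 CPM in stressed mice 10, 11 and 13. The stressed values thus lay on both sides of the resting ones, with the highest and the lowest of all 6 among them. The spread of the resting values (1.75% of their mean) was smaller than counting error at about 66 counts gives (12.3%). The log2 fold change was 0.02, with a wide 95% interval from -0.55 to 0.59. Nfkbiz encodes the nuclear IkB-zeta, which lets NF-kB switch on a later set of genes such as Lcn2. It was at 71.9, 96.5 and 85.0 CPM in the resting mice and at 62.8, 88.3 and 69.6 CPM in the stressed mice in the same order. The groups overlapped, and the log2 fold change was -0.20 ± 0.13 (SE; interval -0.49 to 0.10, edgeR adjusted p = 0.805). Bcl3 encodes another nuclear IkB protein, which works with p50 and p52 dimers. It was at 28.0, 25.1 and 33.3 CPM at rest and at 31.3, 33.3 and 21.8 CPM after stress, with equal means (28.8 CPM each) and a log2 fold change of 0.001 (-0.34 to 0.34). Its lowest value was in stressed mouse 13, the mouse with the highest Nfkbia and Nfkbie. An antisense gene, Gm16175, shares 6.51% of the exon bases of Bcl3, and without a stated strand setting their reads may not be told apart.

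For the genes that act on ubiquitin chains or read them, stressed values lay within, across or below the resting ones. Tnfaip3 encodes A20, which edits ubiquitin chains and stops signalling to IKK. It stood at 41.1, 40.9 and 40.9 CPM in the resting mice and at 44.2, 34.3 and 41.9 CPM in stressed mice 10, 11 and 13. The stressed mice thus lay on both sides of 3 nearly equal resting values, whose spread (0.343% of their mean) was smaller than counting error at about 717 counts gives (3.73%). The log2 fold change was -0.03, with an interval from -0.24 to 0.18, so that a rise above 1.13-fold lies outside it. Tnip1 encodes ABIN-1, a ubiquitin-binding partner of A20. It was at 83.3, 84.8 and 100 CPM at rest and at 92.5, 84.6 and 94.4 CPM after stress, and every stressed value lay within the resting range (log2 fold change 0.02, interval -0.17 to 0.21). Tnip3 encodes the related ABIN-3 and was the least abundant, with 26 to 74 counts in a library. It was at 2.45, 2.41 and 4.09 CPM at rest and at 1.69, 2.45 and 1.58 CPM after stress, with stressed mouse 11 reaching the lower resting values. Its log2 fold change was -0.64 ± 0.29 (SE; interval -1.29 to -0.002, edgeR adjusted p = 0.719) and -0.34 without resting mouse 19, its highest library. Birc3 encodes cIAP2, a ubiquitin ligase of the TNF receptor complex. It was at 40.7, 42.8 and 43.7 CPM at rest and at 36.5, 42.5 and 42.6 CPM after stress, with mouse 10 alone below the resting range (log2 fold change -0.07, interval -0.25 to 0.11).

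Zc3h12a and Relb complete the set. Zc3h12a encodes Regnase-1, an RNase that cuts inflammatory messenger RNAs, those of Il6 and Nfkbiz among them. It was at 31.9, 43.4 and 45.7 CPM at rest and at 39.8, 61.95 and 50.3 CPM in stressed mice 10, 11 and 13. Mice 11 and 13 lay above all resting mice and mouse 10 within their range. The log2 fold change was 0.33 ± 0.16 (SE; interval -0.04 to 0.69, edgeR adjusted p = 0.737), and it was 0.15 without stressed mouse 11. Relb encodes the NF-kB subunit of the alternative pathway. It was at 58.1, 55.0 and 60.2 CPM at rest and at 62.9, 56.0 and 56.9 CPM after stress, overlapping ranges with a log2 fold change of 0.02 (-0.14 to 0.18). A 1.5-fold rise therefore lies outside the intervals of 7 genes, namely Nfkbiz, Tnfaip3, Tnip1, Tnip3, Bcl3, Birc3 and Relb, but inside those of Nfkbia, Nfkbie and Zc3h12a.

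**Figure D2:**
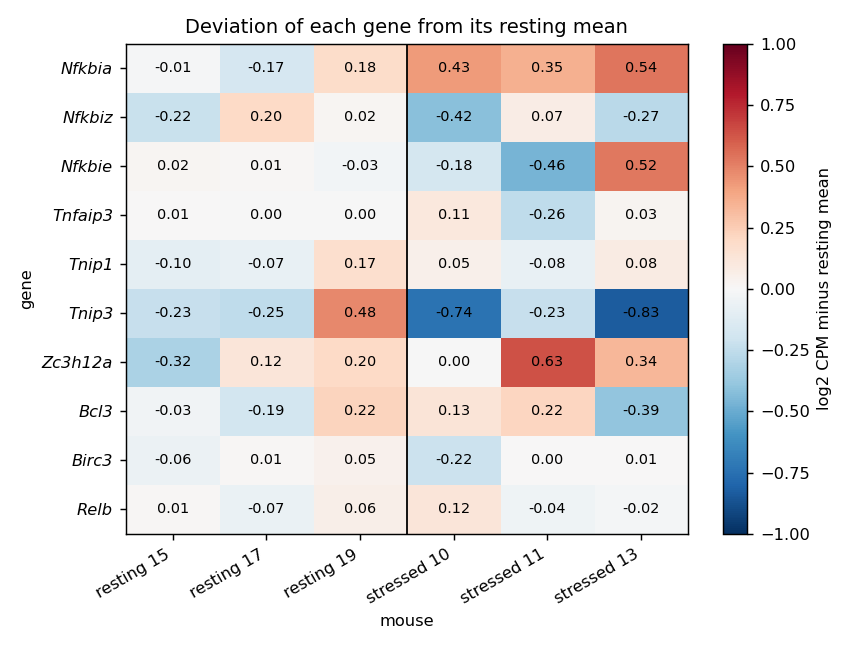
Log2 CPM (prior count 2) of each gene (rows) in each mouse (columns) minus the mean of the 3 resting mice; red is above and blue below, and the vertical line divides resting from stressed mice. The Nfkbia row runs from 0.35 to 0.54 in the stressed mice, while each other row holds both signs among the stressed mice, except Tnip3, which is below 0 in all 3.

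Read by mouse, the 10 genes did not move as a block. Stressed mice 10, 11 and 13 were above the resting mean for 5, 5 and 6 of the 10 genes. Resting mice 15, 17 and 19 were above it for 3, 4 and 8, and mouse 19 held the highest value of all 6 libraries for 4 genes. The summed level of the 9 genes other than Nfkbia was 361, 395 and 417 CPM in the resting mice and 375, 406 and 385 CPM in the stressed mice, all of the latter within the resting range. Nfkbia relative to Tnfaip3 within a library was 1.57, 1.41 and 1.81 at rest and 1.98, 2.43 and 2.26 after stress, and relative to the sum of the other 9 it was 0.179, 0.147 and 0.177 against 0.233, 0.205 and 0.246. Neither ratio overlapped between the groups, but neither did Nfkbia itself, so the ratios are not separate evidence. They were formed after the values were seen, so no test is given.

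Per length of exon, Nfkbia was the most abundant of the set, and the genes spanned a wide range of levels. CPM were divided by the kilobases of annotated exon, and the values are means of all 6 libraries with their SD. Nfkbia stood at 47.8 ± 8.74 CPM per kilobase, then Tnip1 at 25.4 ± 1.92. Zc3h12a (15.8 ± 3.53), Nfkbiz (15.8 ± 2.57) and Relb (14.97 ± 0.749) followed with overlapping ranges, and Zc3h12a was above Nfkbiz in 3 of 6 libraries and Nfkbiz above Relb in 3 of 6. Bcl3 was at 11.6 ± 1.90, Birc3 at 8.28 ± 0.527 and Tnfaip3 at 5.61 ± 0.458 CPM per kilobase. Nfkbie (1.23 ± 0.299) and Tnip3 (0.224 ± 0.0822) came last. Apart from those 3 genes, the ranges of neighbours in this order did not overlap. The exon length counts every annotated transcript, 8 of them for Tnip3 with 10916 bases in all, so a level per kilobase is lowered where a long isoform is little used.

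The NF-kB subunits and the kinases that free them gave no call. Rela, the subunit with the main activating domain, was at 34.9, 34.9 and 33.9 CPM at rest and at 34.3, 33.7 and 35.9 CPM after stress (log2 fold change 0.003, interval -0.15 to 0.16). Nfkb1 and Nfkb2, which encode the precursors of p50 and p52, had log2 fold changes of 0.03 and -0.004. Rel, the c-Rel subunit of lymphoid and myeloid cells, was at 4.24, 4.70 and 4.87 CPM at rest and at 3.74, 3.00 and 4.19 CPM after stress. Its groups did not overlap, and its log2 fold change was -0.34 (-0.76 to 0.08, edgeR adjusted p = 0.771). Nfkbid, a nuclear IkB gene outside the set, likewise had lower values in every stressed mouse (3.44 to 3.95 CPM) than in any resting mouse (4.48 to 5.32 CPM), at -0.36 and an adjusted p of 0.736 by edgeR. Nfkbib, the IkB-beta gene, had -0.06. Among 10 genes of the IKK complex and its kinases 4 were above 0 and 6 below, none passed, and Ikbke (-0.14), Map3k7 (-0.08) and Ikbkb (-0.10) had the smallest p. For 2 of the 10, Ikbke and Map3k7, both lower, the groups did not overlap, beside 12.7% of all tested genes.

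**Figure D3:**
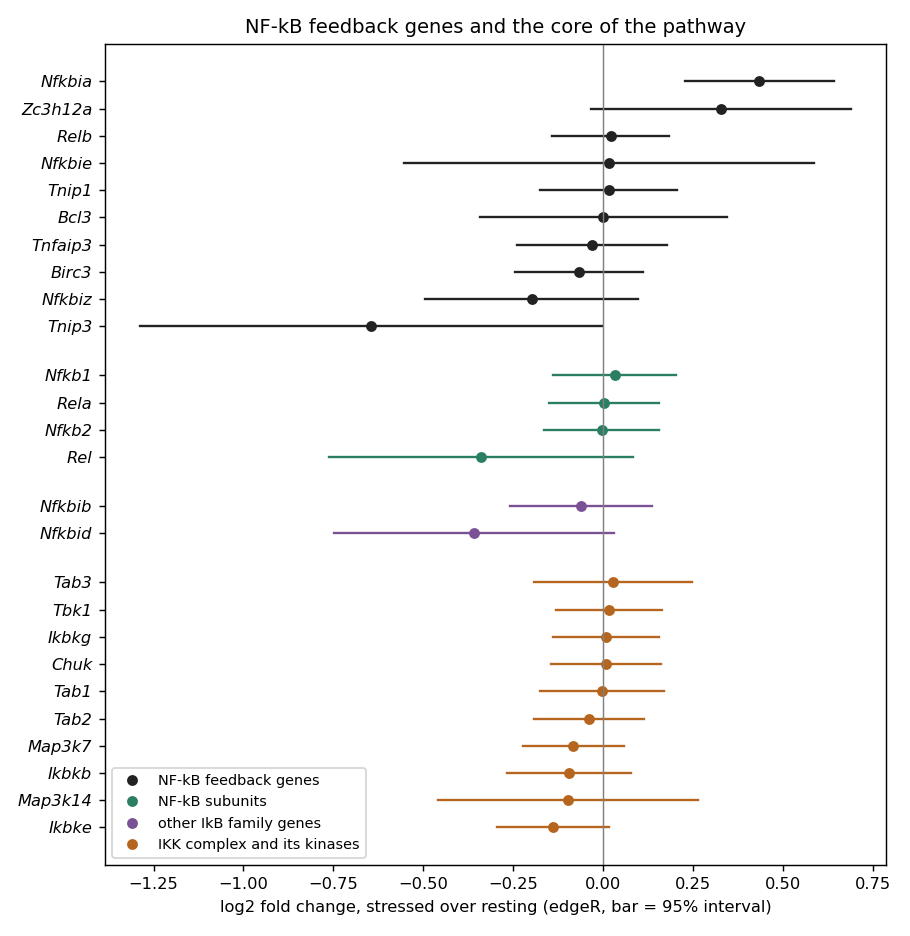
Log2 fold change of stressed over resting mice (point) with its 95% interval (line). The 10 feedback genes are black, the NF-kB subunits green, other IkB genes purple, and the genes listed for the IKK complex and its kinases brown. Nfkbia is the gene whose interval, 0.23 to 0.64, lies wholly above 0; that of Tnip3 ends at -0.002.

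Upstream, Tlr2, the receptor for bacterial lipoproteins, had the smallest p of the receptor and adaptor list. It was at 46.3, 60.2 and 54.2 CPM at rest and at 81.4, 78.2 and 76.1 CPM after stress, with no overlap. Its log2 fold change was 0.55 (0.35 to 0.76, edgeR adjusted p = 0.162). Of the 18 receptors and proximal adaptors 10 were above 0 and 8 below, with a median of 0.003 and no call. Irak1, a kinase of the same pathway, had -0.15 and Il1rap, the shared chain of the interleukin-1 receptor, 0.20. Of the 18, the groups did not overlap for Tlr2 and Il1rap, higher, and Irak1, lower, beside 12.7% of all tested genes. Of 20 ubiquitin enzymes and adaptors 8 were above 0 and 12 below, again with no call. Ripk1, the scaffold kinase of the TNF receptor complex, had -0.22 (-0.39 to -0.06), Rnf11, a subunit of the A20 complex, -0.21, and the A20 adaptor Tax1bp1 0.16. For 3 of the 20, all lower, the groups did not overlap, Ripk1 and Rnf11 among them, beside 12.7% of all tested genes, 6.58% lower.

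Of 25 listed inflammatory genes that NF-kB switches on, 8 had too few counts to test, among them Il6, Cxcl1 and Cxcl2, and Sele had no count in any library. Of the 17 tested, 9 were above 0 and 8 below (median 0.02), and none passed. The groups did not overlap for 1 of the 17, Il1b, beside 12.7% of all tested genes. Il1b was at 0.478, 0.940 and 0.829 CPM at rest and at 1.90, 1.14 and 3.28 CPM after stress, without overlap (log2 fold change 1.47, interval 0.53 to 2.41, edgeR adjusted p = 0.494). These values rest on few reads, 8 to 16 counts in a resting library and 21 to 54 in a stressed one. Tnf was at 1.32, 1.41 and 1.88 CPM at rest and at 1.74, 1.96 and 2.92 CPM after stress, with mouse 10 inside the resting range (0.51, interval -0.13 to 1.15). Ptgs2, the inducible cyclooxygenase, had -0.61 (-1.22 to 0.01).

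Nfkbia is also a known target of the glucocorticoid receptor, whose part in these values was not tested. Of 10 other such targets 7 were above 0, beside 49.0% of all tested genes, with a median of 0.11 and no call. The groups overlapped for all 10. Sgk1, the serum and glucocorticoid-regulated kinase, was at 205, 240 and 312 CPM at rest and at 344, 291 and 323 CPM after stress (0.34, interval 0.04 to 0.64, edgeR adjusted p = 0.654). Klf9 had 0.14 and Zfp36, which like Zc3h12a promotes decay of inflammatory messenger RNA, 0.16. Sgk1, Klf9 and Zfp36 had the smallest p of the 10, and 3 targets were below 0, down to -0.12. Of 9 immediate early genes 5 were above 0, none passed, and Atf3 (-0.36), Egr1 (0.46) and Jun (-0.10) had the smallest p. For 1 of the 9, Atf3, which was lower, the groups did not overlap, beside 12.7% of all tested genes.

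Measured over all 6 mice, the 5 genes whose pattern was most like that of Nfkbia were Cyp51, Fdps, Fasn, Slc2a5 and Poc1a. The search covered 13576 tested genes with a mean of at least 1 CPM. Genes without a symbol or with a predicted-gene, Riken or similar placeholder name were left out. Likeness was taken as the root-mean-square difference between the 2 genes' deviations from their own mean log2 CPM. The difference was 0.04 for Cyp51 and Fdps, 0.05 for Fasn and 0.06 for Slc2a5 and Poc1a on that log2 scale, against a deviation of 0.25 for Nfkbia itself, and 27 genes lay closer than 0.1. Cyp51 and Fdps encode enzymes of cholesterol synthesis, Fasn fatty acid synthase, Slc2a5 the fructose transporter and Poc1a a centriole protein. Cyp51 was at 116, 113 and 140 CPM at rest and at 165, 162 and 179 CPM after stress. In Nfkbia and in Cyp51 alike, resting mouse 19 was the resting mouse nearest the stressed ones. The 6 points share their libraries, and genes chosen as nearest among so many will be near.

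**Figure D4:**
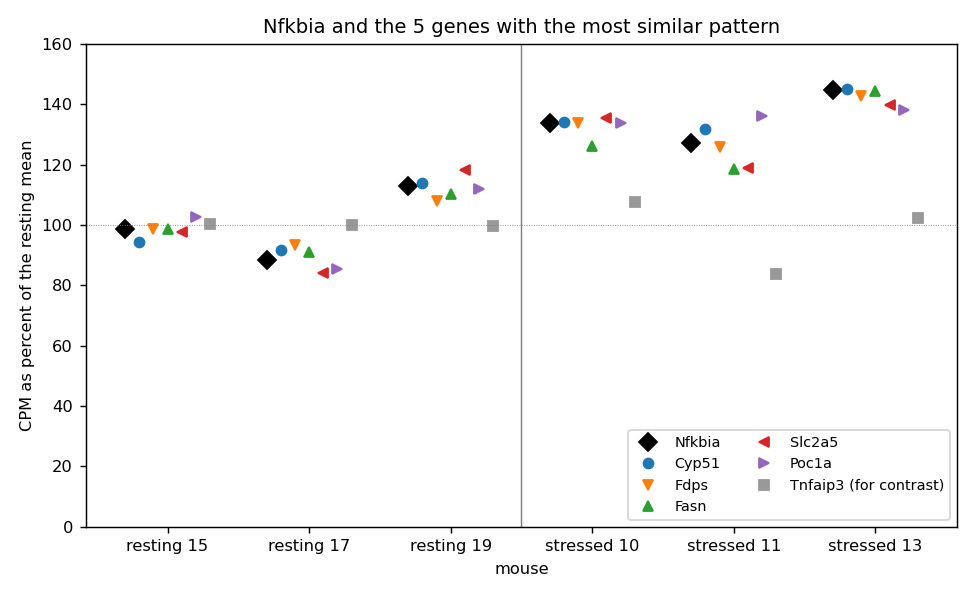
CPM of Nfkbia (black diamonds), the 5 genes with the most similar pattern and, for contrast, Tnfaip3 (grey squares) in each mouse, as a percent of the gene's mean in the 3 resting mice; the vertical line divides resting from stressed mice. Nfkbia is at 127% of its resting mean or more in every stressed mouse, and Tnfaip3 goes down to 83.65%.

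Marker genes of the cell types in the tissue differed between mice as well, and their part in the values above was not tested. Of 4 epithelial markers 3 were above 0, and their summed level was 18810 to 20740 CPM at rest and 22440 to 24390 CPM after stress, without overlap. Without Car1 the sums were 10410 to 11370 CPM at rest and 9817 to 12810 CPM after stress and overlapped. Car1 (0.45) and Epcam (0.09) had the smallest p. All 4 adipocyte markers were above 0 (Plin1 0.73, Retn 0.95), with sums of 48.4 to 66.9 CPM at rest and 59.2 to 79.1 CPM after stress. The groups did not overlap for 2 of the 4, Plin1 and Retn, both higher, beside 12.7% of all tested genes, 6.13% higher. All 6 macrophage and dendritic cell markers were below 0, with sums of 39.7 to 48.3 CPM at rest and 27.3 to 49.8 CPM after stress, and Cx3cr1 (-0.68) and Flt3 (-0.73) had the smallest p. All 4 tested B cell markers were below 0 (Cd79b -0.67, Cd79a -0.77), with sums of 5.80 to 9.34 CPM at rest and 3.22 to 6.59 CPM after stress. Of 5 T cell markers 3 were below 0, with Cd2 at -0.999 and Cd8a at 0.18 and sums of 28.0 to 37.5 CPM at rest and 28.6 to 40.7 CPM after stress. Neutrophil markers summed to at most 2.06 CPM in a library, with Mmp9 at -0.97 and Csf3r at -0.11, and S100a8, S100a9 and Cxcr2 were too low to test. All 5 endothelial markers were below 0 (Eng -0.37, Cdh5 -0.27), with sums of 49.2 to 74.1 CPM at rest and 44.6 to 57.5 CPM after stress. Of 5 fibroblast markers 4 were below 0 (Pdgfra -0.31, Lum -0.05; sums of 285 to 434 and 273 to 379 CPM), and all 4 smooth muscle markers were above 0 (Cnn1 0.16, Actg2 0.15; sums of 1744 to 2282 and 2105 to 2330 CPM). In the other marker lists the groups did not overlap for Car1, which was higher, and for Cx3cr1, Cd2, Eng and 1 B cell marker, which were lower. None of these markers passed the threshold.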

How the data were processed

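RNA of whole colon tissue was sequenced from 6 mice. Per the labels' protocols, RNA of high integrity was selected for poly(A) and made into stranded libraries. The authors deposited raw read counts, whole numbers per Ensembl gene, with 1 column per mouse. Per the submitters' processing notes, fastp, HISAT2 and the mm10 build were used; no source used here states the read counter, annotation or strand setting. Groups came from the sample labels, which name a separate mouse for each library.

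Counts were tested with edgeR 4.0.16 in R 4.3.3 (quasi-likelihood F test, 2-sided, TMM scaling with factors of 0.985 to 1.02, filterByExpr with a minimum count of 10 and total of 15). Benjamini-Hochberg adjusted p under 0.05 over all 16119 tested genes was the threshold. Each standard error was derived from the log2 fold change and the F statistic of that test, and the 95% interval from it by a t distribution. Both are approximate. CPM are scaled by the TMM factors. Alternatives used DESeq2 1.42.0, limma-voom (limma 3.58.1), other scalings and filters, and leaving out each mouse. Symbols and exon lengths came from GENCODE M21 for the same build, and promoters from RefSeq. The 10 genes and the other lists were chosen with earlier results of these data known. In each list the text names every gene past the threshold and the 3 with the smallest p (2 for cell type markers); Rela, Gm16175 and the genes too low to test were added after their values were seen. With 1 library per mouse, p-values set the difference between groups against the spread between mice. The edgeR estimate of that spread draws in part on the other genes.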

Additional observations from a re-analysis of the deposited data

How the results depend on the processing

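Nfkbia, Nfkbiz, Tnip3 and Zc3h12a kept their direction under all 12 alternatives. Nfkbia passed in 2 of them, so that 1 of the 10 feedback genes was past the threshold with DESeq2 and 1 without the low-count filter, against 0 otherwise; the cause was not tested. Over all genes the count of 5 of 16119 became 151 of 25666 without the filter, 56 of 16119 with DESeq2 and 3 of 16119 with limma-voom. It was 1 to 14 with a mouse left out (1 without resting mouse 15 or stressed mouse 10, 14 without stressed mouse 11). The number of feedback genes past the threshold was 0 to 0 and their median log2 fold change -0.04 to 0.06 with a mouse left out.

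The 6 genes near 0 changed sign in places, none with a call. With library totals only, which shifts the median of all genes to -0.03, Nfkbie was at -0.0142, Tnip1 at -0.0143, Bcl3 at -0.0296 and Relb at -0.0102. Bcl3 was at -0.0011 without the filter, -0.0002 with a minimum count of 30 and -0.0076 with limma-voom, where Nfkbie was at -0.0591. With a mouse left out, Bcl3 ranged from -0.12 to 0.16, Nfkbie from -0.32 to 0.21, Tnip1 from -0.0297 to 0.11, Relb from -0.0334 to 0.0552, Tnfaip3 from -0.11 to 0.0699 and Birc3 from -0.11 to 0.004.

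No paired analysis was possible because the mouse numbers are not shared between the groups. Nfkbie and Tnip3 had 26 to 89 counts in a library. Counting error there is 12.3% and 15.2% of the level, beside an estimated spread between mice of 20.5% and 22.1%.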
